A study of Rattus norvegicus with 2 samples.

Results

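Mural cells are the cells wrapped around blood vessels, the pericytes of capillaries and the smooth muscle cells of arterioles, and 613 of the 25360 cells kept from the cochlear duct of neonatal rats were counted as such. They were 313 of 12779 kept cells at postnatal day 1 (P1) and 300 of 12581 at day 7 (P7). A cell was a member when it held at least 3 UMIs of Rgs5, at least 1 UMI of Kcnj8, Abcc9 or Notch3, and UMIs of at most 2 of the 6 endothelial genes Cldn5, Plvap, Cdh5, Kdr, Flt1 and Esam. A UMI, or unique molecular identifier, stands for 1 captured RNA molecule. The members were thus chosen by the UMI counts of these 10 genes, and their levels in the members are given as a description only.

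The series holds 2 droplet libraries of 3′ RNA tags from Sprague-Dawley rats, 1 library for P1 and 1 for P7, with no treatment or genetic change. Each library was a pool of cochlear ducts from many rats, and the study's Methods allow both sexes without giving the make-up of the pools. By the study's Methods, the stria vascularis, spiral ligament and spiral ganglion were dissected away, and dead cells and red cells were removed before loading. Markers of fibrocytes, glia and red cells were still found in the other kept cells. Which vessels the members came from is not known. With 1 library per age, no difference between ages could be tested, age and library cannot be told apart, and every interval printed is an exact 95% interval that covers counting error only.

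Pericytes sit inside the basement membrane they share with the endothelium and help to build it. They are held to the vessel by platelet-derived growth factor signalling through PDGFRB, and they set capillary tone through potassium channels, calcium entry and cyclic GMP. In the cochlea they line the capillaries that feed the sensory tissue and take part in the barrier between blood and labyrinth.

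In all, the members carried 1939079 UMIs at P1 and 2193907 at P7, and their median per cell was 5399 and 6121.5, against medians of 6615 and 6897 in the other kept cells. Mitochondrial genes took a median of 7.28% of their UMIs at P1 and 8.99% at P7. A doublet caller marked 30 members at P1 and 37 at P7, and all were kept in the values below. The libraries shared 60 barcodes, of which 2 belonged to members of one library and no barcode was a member in both. The labels call the samples greater epithelial ridge cells. In the members, 11 epithelial markers summed to 60.9 CPM (the UMIs of a gene summed over the cells of a set and scaled to a fixed total) at P1 and 49.2 at P7, against 142 and 198 in the other kept cells. The 5 markers Rgs5, Kcnj8, Abcc9, Notch3 and Col4a1, of which Col4a1 was not in the rule, summed to 7249 CPM in the members at P1 and 5975 at P7, against 471 and 443 in the other kept cells. Of the epithelial markers, Cldn6 had no UMI at P1, and Otoa, Otogl and Otog had none at P7.

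The share of mural cells among kept cells was 2.45% at P1 (Clopper-Pearson interval 2.19 to 2.73) and 2.38% at P7 (2.13 to 2.67). The log2 ratio of the shares was -0.04 (-0.27 to 0.19), so a difference between the libraries was not detectable at this number of cells. The ratio depended on the endothelial limit: 114 members at P1 and 64 at P7 had none of the 6 endothelial genes, a ratio of -0.81. That stricter limit acted mainly through Esam, found in 188 members at P1 and 212 at P7, while each of the others was in at most 22. Each share is a share of recovered cells, and recovery from the tissue was not measured.

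Rgs5, a regulator that shortens G protein signalling, had a median of 15 UMIs per member at P1 (range 3 to 59) and 20 at P7 (3 to 85). Kcnj8 and Abcc9 encode the pore and the sulfonylurea receptor of the vascular ATP-sensitive potassium channel. Kcnj8 was found in 275 members at P1 and 266 at P7, and Abcc9 in 279 and 280. Notch3, the Notch receptor of mural cells, was found in 75 and 73. Of the endothelial genes, Esam, an adhesion molecule gene, was found in 188 members at P1 and 212 at P7, while Cldn5, the tight junction claudin of endothelium, was found in 6 and 11, and Plvap, a gene of the diaphragm of endothelial pores, in 8 and 22. At the edge of the rule stood 8 members at P1 and 7 at P7 with exactly 3 Rgs5 UMIs, in which Higd1b summed to 326 and 0 CPM and Pdgfrb to 599 and 815 CPM. Just outside, with 2 Rgs5 UMIs, were 23 and 20 cells, with Higd1b at 122 and 19.1 CPM and Pdgfrb at 335 and 370 CPM.

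Genes that the rule did not use set these cells apart from the rest of the duct in both libraries. Of 5474 genes with a mean of at least 20 CPM in the members, 171 were at least 4-fold higher in the members than in the other kept cells at both ages (3.12%) and 38 at least 4-fold lower (0.694%). Of 28 pericyte genes listed, 19 reached that level and 15 of the 19 were at least 4-fold higher at both ages. Their median log2 ratio to the other cells was 4.52 at P1 and 3.95 at P7, against 0.11 and 0.10 over all genes compared. Genes of a cell are not independent of those that chose it, so these ratios describe the cells and test nothing.

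The leading genes by the smaller ratio of both ages included Higd1b, a member of the HIG1 family of hypoxia-inducible genes, at 556 CPM at P1 and 488 at P7. In the other kept cells Higd1b stood at 0.760 and 1.09 CPM, a log2 difference of 9.52 at P1 and 8.81 at P7. Ndufa4l2, a mitochondrial subunit induced by low oxygen, stood at 941 CPM at P1 and 1204 at P7, with log2 ratios of 8.08 and 7.84, and Cox4i2, the low-oxygen form of a cytochrome oxidase subunit, at ratios of 5.53 and 5.04. All 3 were thus far above the rest of the duct at both ages. The transcription factor gene Foxs1 had log2 ratios of 8.81 at P1 and 6.97 at P7, the small GTPase gene Rem1 7.44 and 7.15, and Tbx15, another transcription factor, 5.75 and 6.39. Vtn, which encodes the matrix glycoprotein vitronectin, stood at 517 CPM at P1 and 828 at P7, with ratios of 7.04 and 6.01. The others of the leading 15 were Acta2, Gucy1a1, Gucy1b1, Col4a4, Arhgap15, Inpp4b, Spink8, Mrvi1 and Dlk1.

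**Figure D1:**
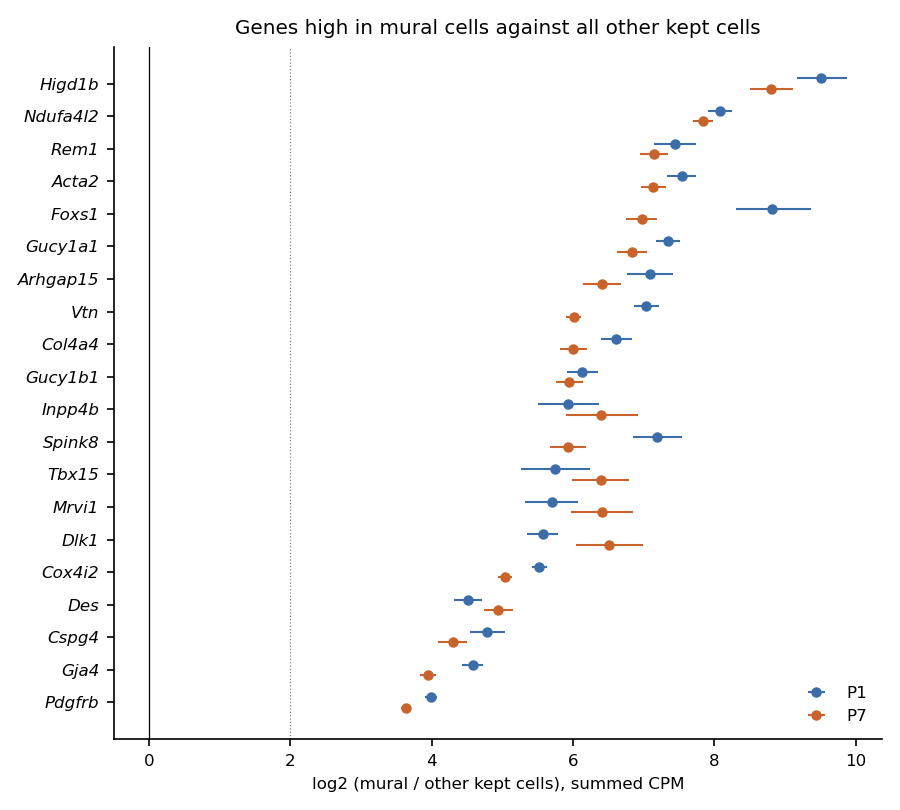
Log2 ratio of summed CPM in mural cells to that in all other kept cells (x axis) for the 15 genes that lead by the smaller ratio of both ages and 5 further pericyte genes (y axis), with P1 in blue, P7 in orange and exact 95% counting intervals as bars. All points lie right of the dotted line at 4-fold, and Higd1b and Ndufa4l2 lead with ratios of 9.52 and 8.08 at P1.

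The textbook pericyte genes were high as well. Pdgfrb, the receptor that recruits pericytes, stood at 826 CPM at P1 and 946 at P7, against 52.1 and 76.2 in the other kept cells. Cspg4, the NG2 proteoglycan gene, had log2 ratios to the other cells of 4.79 at P1 and 4.30 at P7, and Des, the intermediate filament gene desmin, 4.52 and 4.94. Gja4, a connexin of vessel walls, had ratios of 4.58 and 3.95. A further set of names tied to brain pericytes was not above the level for comparison, among them Atp13a5, Slc6a13, Slc12a7 and P2ry14. Enpep and Art3, on the same list, were not 4-fold higher at either age, with log2 ratios of -0.30 and 0.88 for Enpep and 0.00 and -0.79 for Art3.

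The share of cells with a UMI was set beside its background. After every cell was thinned to 2000 UMIs, which left 309 members at P1 and 291 at P7, Pdgfrb was found in 79.3% and 84.9% of them, and without thinning in 97.8% and 99.7%. Macrophages, which should lack it, gave 2.84% of 141 and 8.20% of 183 thinned cells. The macrophage set was not cleared of members. At P7 its highest cell held 76 UMIs of the 5 pericyte markers, against at most 75 in the other kept cells. The set at P7 thus overlapped the members, and the number of shared cells was not counted. The macrophages' median depth before thinning was 7786.5 UMIs at P1 and 7344 at P7, deeper than the members'. Vtn was found in 46.9% and 62.2% of thinned members (69.3% and 81.7% without thinning), against 0.709% and 2.73% of macrophages.

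Of the genes of vessel tone, 43 were listed, 39 were in the files and 18 reached the level for comparison, and 13 of those 18 were at least 4-fold higher in the members at both ages. A gene could reach that level through the members alone, so the share is a description that the filter sets in part, as it is for the pericyte list, of which 28 were listed, 27 were in the files and 19 were compared. Soluble guanylate cyclase, which makes cyclic GMP when nitric oxide binds it, is a dimer of the products of Gucy1a1 and Gucy1b1. Gucy1a1 stood at 619.9 CPM at P1 and 317 at P7 with log2 ratios to the other cells of 7.34 and 6.84, and Gucy1b1 at 214 CPM at P1 and 259 at P7 with 6.13 and 5.95. Mrvi1, a target of the kinase that cyclic GMP switches on, had ratios of 5.70 and 6.40. Of the phosphodiesterases that remove cyclic nucleotides, Pde5a stood 3.35 and 2.73 above the other cells on the log2 scale, Pde3a 2.64 and 3.49, and Pde1a 2.14 and 2.42.

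The receptors covered several classes of vasoactive signal. Avpr1a, the vasopressin receptor of smooth muscle, had log2 ratios to the other cells of 5.53 at P1 and 5.92 at P7. Ednra, for endothelin, had 2.94 and 2.80, Agtr1a, for angiotensin, 3.01 and 2.23, and Tbxa2r, for thromboxane, 3.69 and 2.85. The adenosine receptor genes Adora2a and Adora2b, which raise cyclic AMP, stood 3.70 and 3.19 above at P1 and 2.93 and 2.80 at P7. The alpha-adrenergic receptor genes were all below the level for comparison.

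Among the other channel genes listed, 7 not used in the rule were compared and 2 were at least 4-fold higher in the members at both ages. These were Cacna2d1, a calcium channel subunit, and Ano1, a calcium-activated chloride channel. Ano1 stood 2.97 above the other cells at P1 and 2.83 at P7 on the log2 scale. The calcium-activated potassium channel gene Kcnma1, typical of arterial smooth muscle, had 1 UMI at P1 and 0 at P7 in the whole set of members, which is below the level at which a ratio can be given. Kcnj8 and Abcc9 are neighbours on chromosome 4, and Gucy1a1 and Gucy1b1 on chromosome 2, with 0 protein-coding genes between the genes of each pair in the RefSeq annotation of the rat assembly GRCr8. The same holds for Rgs4 and Rgs5 on chromosome 13, and Rgs4 stood 5.57 and 4.67 above the other cells on the log2 scale.

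Contractile genes, by contrast, were spread very unevenly over the members. The 4 smooth muscle genes Acta2, Tagln, Myh11 and Cnn1 were summed in each cell, and the sum was 0 in 178 of 313 members at P1 and in 182 of 300 at P7. The upper quartile was 482 CPM at P1 and 383 at P7, and the highest cell held 44301 and 24995 CPM. Acta2, smooth muscle actin, was found in 111 members at P1 and 99 at P7, but the 30 and 27 cells with at least 10 UMIs of it held 74.3% and 75.2% of all its UMIs. Both libraries thus had the same form, many cells at 0 and a thin tail of high cells. Myh11, smooth muscle myosin, had 40 UMIs at P1 and 15 at P7 in all members, and Cnn1, calponin, 14 and 1, all of them in 1 cell in each library.

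**Figure D2:**
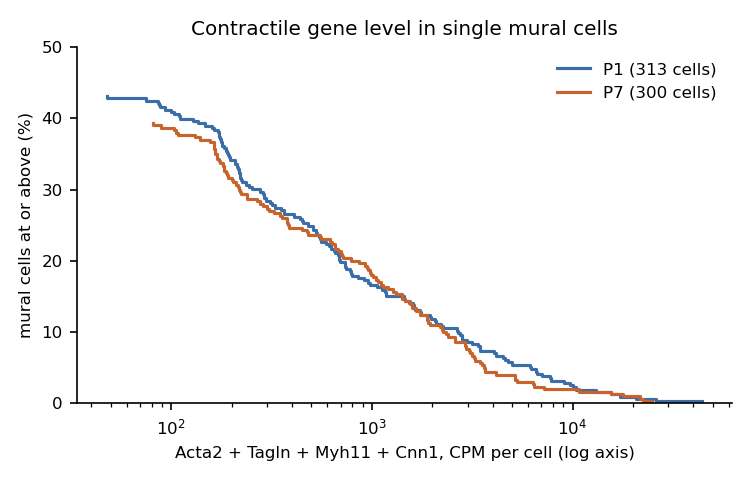
Percent of mural cells (y axis) whose summed level of Acta2, Tagln, Myh11 and Cnn1 is at or above a given CPM per cell (x axis, log), for P1 (313 cells, blue) and P7 (300 cells, orange). Both lines end below 50% because 178 and 182 cells had none of the 4 genes, and the highest cells reach 44301 and 24995 CPM.

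To see what else varied with contractile level, the 104 highest members at P1 and the 100 highest at P7 were set against as many of the lowest. All cells of the lower group had a sum of 0, and they were the first in barcode order among the cells at 0. The groups are ranges of a score, not cell types, and 31 and 18 cells above 0 lay between them. Of 5477 genes compared, 25 were at least 2-fold higher in the upper group at both ages (0.456%) and 24 at least 2-fold lower (0.438%). The contractile list, without the 4 genes of the score, gave 4 of 19 genes higher and none lower, and the pericyte list none of 19 in either direction. The median depth was 4730 UMIs in the upper and 5385 in the lower group at P1, and 6057.5 and 5856.5 at P7.

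Named genes higher in the upper group included several of the actin filament, while of 12 integrin and junction genes compared 1 was at least 2-fold higher and 1 lower in both libraries, with median log2 ratios of 0.09 at P1 and 0.19 at P7. Tpm1, tropomyosin, stood at 1092 CPM in the upper and 257 in the lower group at P1, and at 673 and 184 at P7, log2 ratios of 2.09 and 1.87. Myl9, the regulatory light chain of smooth muscle myosin, had ratios of 1.58 at P1 and 1.41 at P7. Mustn1, a small muscle protein gene, had 2.47 and 2.21, and Nexn, an actin-binding protein of muscle, 1.44 and 1.71. Itga4, the higher gene of that list, and Itga6, an integrin gene not on it, had ratios of 1.70 and 1.74 at P1 and 2.56 and 1.69 at P7. Ltbp1, which stores latent transforming growth factor beta in matrix, had 1.62 at P1 and 2.59 at P7. Crip1 (1.28 and 1.16) and the Notch feedback gene Nrarp (1.36 and 1.20) were also in the group of 25, and so was the kinase-like gene Map3k7cl (2.50 and 2.95).

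Of 28 interstitial matrix genes compared, 3 were at least 2-fold lower in the upper group in both libraries, namely Fbn2, Postn and Tnc, and so were 1 of 10 protease and inhibitor genes, Htra3, and 0 of 15 basement membrane genes. Postn, the matricellular protein periostin, stood at 50.05 CPM in the upper and 386 in the lower group at P1, and at 135 and 481 at P7, ratios of -2.95 and -1.83. Tnc, tenascin C, had ratios of -1.59 at P1 and -2.01 at P7, with an interval at P1 that spans 0 (-3.66 to 0.11), and Ccn3, a secreted matricellular protein gene, -1.51 and -2.16. The homeobox gene Prrx2 of mesenchyme had -1.93 and -2.84, and Scg3, a granin, -2.11 and -1.91. Postn, Ccn3 and Scg3 are also on the list of markers for the Scara3- and Ccn3-positive mesenchyme of the duct. That list summed to 1196 CPM in all members at P1 and 2838 at P7, against 2688 and 1956 in the other kept cells, and its part in the difference between the groups was not tested. With the members richest in markers of other cell types left out (the top 10%), 10 genes in place of 24 were at least 2-fold lower in the upper group.

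**Figure D3:**
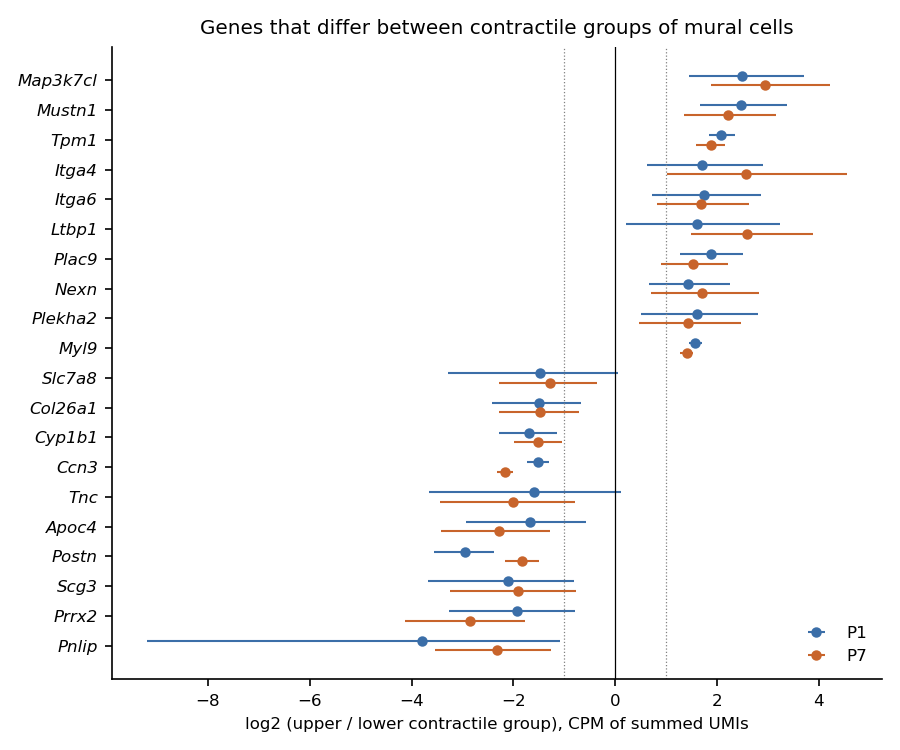
Log2 ratio of summed CPM between the upper and the lower contractile group of mural cells (x axis) for the 10 highest and 10 lowest genes by the smaller ratio of both ages (y axis), with P1 in blue, P7 in orange and exact 95% counting intervals. Map3k7cl and Mustn1 lead on the right and Pnlip, Prrx2 and Scg3 on the left, with both ages on the same side for each gene by the way the genes were chosen.

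Between the ages, 17 of the 19 pericyte genes compared lay within a factor of 2, about the same share as over all genes compared. Of 5479 genes compared in the members, 294 were at least 2-fold higher at P7 (5.37%) and 240 at least 2-fold lower (4.38%), and the median log2 ratio over all genes compared was 0.08. With CPM rescaled so that this median was 0, 236 were higher and 288 lower. The same median was 0.12 in the other kept cells, 0.12 in 164 and 182 endothelial cells and 0.11 in 2531 and 3623 fibroblasts, sets built from their own marker genes. Of the 534 genes past 2-fold in the members without rescaling, 329 were past 2-fold the same way in the other kept cells. The pericyte list gave 2 of 19 genes higher and none lower, with a median of 0.23, against 0.56 for the same genes in the other kept cells.

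Of the genes of the rule, whose levels the choice of cells fixes in part, Rgs5 stood at 2737 CPM at P1 and 2940.4 at P7, Kcnj8 at 834 and 796, and Abcc9 at 591 and 644. Pdgfrb, not used in the rule, had a log2 P7 to P1 ratio of 0.20 (0.10 to 0.29), and Higd1b -0.19 (-0.31 to -0.07). Vtn was higher at P7 by 0.68 (0.57 to 0.79), within a factor of 2. Foxs1 stood at 159 CPM at P1 and 315 at P7, for a ratio of 0.98, close under the 2-fold limit, and in the other kept cells, where it was at 0.354 and 2.51 CPM, the ratio was 2.83.

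Enpep and Art3 were the pericyte genes past 2-fold. Enpep, aminopeptidase A, which cleaves angiotensin, stood at 25.8 CPM at P1 and 86.1 at P7, for a log2 ratio of 1.74 (1.28 to 2.22). The ratio of Enpep was 0.56 in the other kept cells, 0.74 in the endothelial and 0.72 in the fibroblast set, so it was higher at P7 in each, with the largest ratio in the members. It was found in 4.53% of thinned members at P1 and 12.4% at P7 (11.2% and 31.0% without thinning), against 0.709% and 3.28% of thinned macrophages. Art3, an ADP-ribosyltransferase family gene, stood at 46.4 CPM at P1 and 108 at P7, for a ratio of 1.22, and at 2.01 in the other kept cells.

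**Figure D4:**
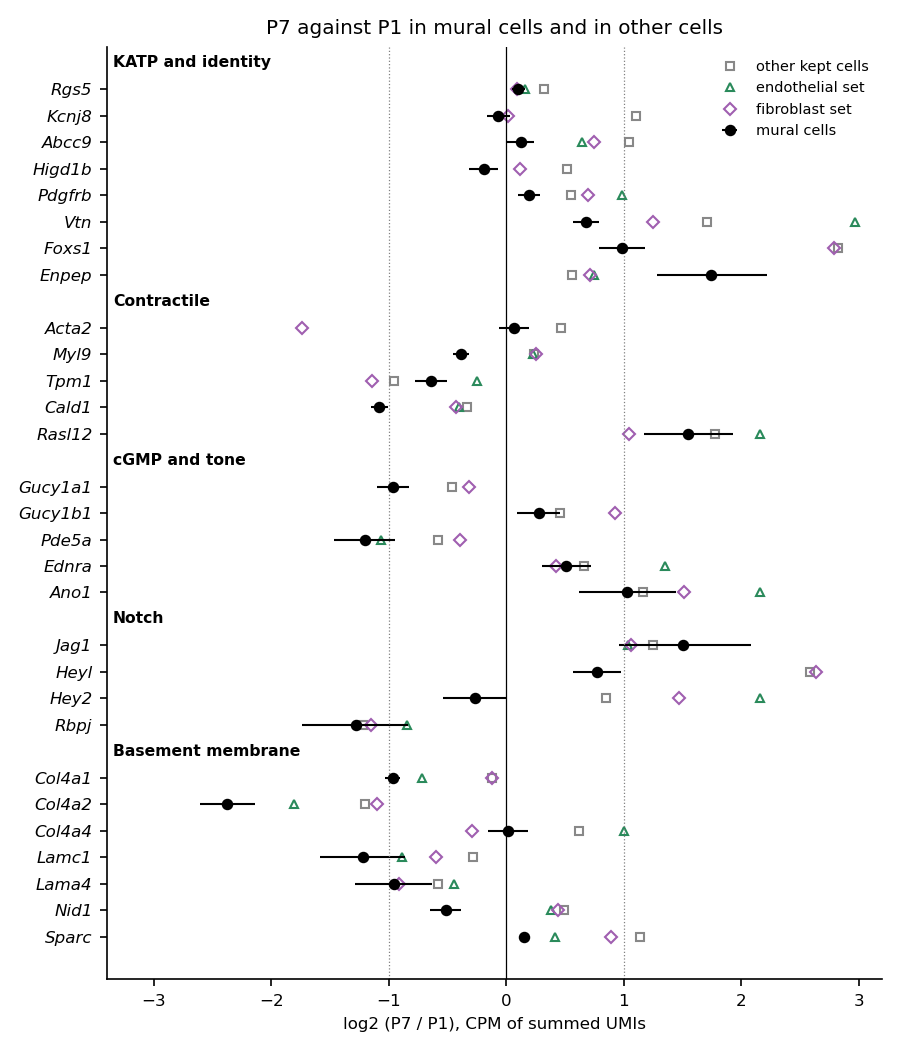
Log2 ratio of P7 to P1 in CPM of summed UMIs (x axis) for genes of 5 groups (y axis), in mural cells (black, with exact 95% counting intervals), the other kept cells (grey squares), the endothelial set (green triangles) and the fibroblast set (purple diamonds), with dotted lines at 2-fold; a symbol is missing where both counts were at most 3. Col4a2 lies farthest left at -2.37 in mural cells and Enpep farthest right at 1.74.

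Of the contractile list, 1 gene was at least 2-fold higher at P7 and 2 at least 2-fold lower of 21 compared, with a median of -0.36 against 0.23 in the other kept cells. Acta2 stood at 479.6 CPM at P1 and 501.4 at P7, for a log2 ratio of 0.06 (-0.06 to 0.19), and Tagln, transgelin, at 419.8 and 291, a ratio of -0.53 (-0.68 to -0.38). The sign for Tagln depended on the rule for members. Its ratio was 0.16 (-0.06 to 0.38) in members with at least 2 of Kcnj8, Abcc9 and Notch3 and 0.65 (-0.02 to 1.32) in those with no endothelial gene, intervals that span 0. With the rule applied after thinning it was 0.24 (0.05 to 0.44). The ratio of Acta2 under the same rules was 0.53, 0.78 and 0.47. Cald1, caldesmon, an actin-binding brake on contraction, stood at 2233 CPM at P1 and 1056 at P7, for a ratio of -1.08 (-1.15 to -1.01), against -0.34 in the other kept cells. Cald1 was thus lower at P7 in both, with the lower ratio in the members, a difference that was not tested. Actg2, gut smooth muscle actin, had a ratio of -1.37, but 74.7% of its UMIs at P1 were in 1 cell, and without the top cell of each library the ratio was 0.41. Under those 3 other rules the ratio of Actg2 was 0.47 (-0.29 to 1.26), 1.64 (-0.09 to 3.57) and 0.97 (0.06 to 1.94), with only the last interval wholly above 0. Rasl12, a small GTPase gene, was higher, at 39.2 CPM at P1 and 114 at P7, for a ratio of 1.55 in the members and 1.78 in the other kept cells. Over the cells of the lower contractile group alone the contractile median was -0.12. That group was chosen to have no UMI of Acta2 or Tagln, so these genes of the list dropped out. The level required was also applied anew in it, so the median is over other genes as well as other cells.

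Among the genes of tone, 1 was at least 2-fold higher at P7 and 2 at least 2-fold lower of 18, with a median of 0.12 against 0.43 in the other cells. The subunits of guanylate cyclase differed from one another. Gucy1a1 stood at 619.9 CPM at P1 and 317 at P7, for a log2 ratio of -0.97 (-1.10 to -0.83), while Gucy1b1 stood at 214 CPM at P1 and 259 at P7, for a ratio of 0.27 (0.09 to 0.46). Pde5a, which breaks down cyclic GMP, stood at 193 CPM at P1 and 83.9 at P7, for a ratio of -1.21 (-1.47 to -0.95), against -0.58 in the other kept cells. Rgs16, a relative of Rgs5, was the other lower gene, with a ratio of -1.20 (-1.69 to -0.73). Avpr1a was higher, at 13.9 CPM at P1 and 31.9 at P7, for a ratio of 1.20 (0.54 to 1.89) from 27 and 70 UMIs. Ednra stood at 155 CPM at P1 and 222 at P7, for a ratio of 0.51 (0.30 to 0.73), within a factor of 2. Of the channel genes, Ano1 was the one past 2-fold among 9 compared, at 37.1 CPM at P1 and 75.7 at P7, for a ratio of 1.03 (0.62 to 1.45).

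In the Notch pathway, through which endothelial ligands mature mural cells, 1 of 10 genes was at least 2-fold higher and 1 at least 2-fold lower at P7, and the median was -0.08 against 0.75 in the other kept cells. Jag1, a ligand that mural cells also carry, stood at 19.1 CPM at P1 and 54.2 at P7, for a log2 ratio of 1.51 (0.96 to 2.08). Its ratio was 1.25 in the other kept cells and 1.04 in the endothelial set. Rbpj, the factor through which Notch acts on genes, stood at 68.6 CPM at P1 and 28.3 at P7, for a ratio of -1.28, and at -1.22 in the other cells. For both genes the direction was the same in the members and outside them. The Notch target Heyl, which stood 5.83 and 4.01 above the other cells, had an age ratio of 0.77 (0.57 to 0.97) in the members and 2.59 outside them. Notch3 itself stood at 44.9 CPM at P1 and 40.1 at P7.

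Growth factor genes of the vessel wall gave 2 of 13 higher and none lower at P7, with a median of 0.21 against 0.76 in the other kept cells. Angptl4, a secreted inhibitor of lipoprotein lipase, stood at 40.2 CPM at P1 and 114 at P7, for a log2 ratio of 1.502 (1.13 to 1.89), against 1.78 in the other cells. Tgfbr3, the co-receptor betaglycan, stood at 16.5 CPM at P1 and 36.9 at P7, for a ratio of 1.16 (0.55 to 1.80), against 1.09. Angpt2, which loosens the vessel wall, stood 4.69 and 3.06 above the other cells, with an age ratio of -0.42 (-0.89 to 0.05). Of 18 transcription factor genes of mural cells, none was past 2-fold between ages, and Foxs1 and Epas1 were at least 4-fold above the other cells at both ages.

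Among the basement membrane genes, those of collagen IV differed from one another between the ages. Collagen IV chains are encoded by genes that lie in pairs, head to head, with a shared stretch of promoter between them, and the stretches of the pairs Col4a1 and Col4a2, and Col4a3 and Col4a4, are shown because the age ratios of the genes of a pair are set side by side next. The chains of the first pair form the collagen IV of all vessels, and those of the second take part in the network of kidney, cochlea and eye. Sequences are from RefSeq on the rat assembly GRCr8, plus strand, while the deposited counts were made on rn6. For the first pair, at chr16:84885521-84885596, all 76 bases between the start sites are given, and for the second pair, at chr9:91323740-91323827, the 88 bases that both promoter windows share of the 412 between the starts. Capitals mark a GC box (GGGCGG on either strand).
Col4a1 and Col4a2: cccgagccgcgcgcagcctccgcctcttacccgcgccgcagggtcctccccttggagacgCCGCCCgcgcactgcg
Col4a3 and Col4a4: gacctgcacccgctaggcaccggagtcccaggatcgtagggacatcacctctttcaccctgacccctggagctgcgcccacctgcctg

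The Col4a1 and Col4a2 stretch was 78.9% G and C and held 1 GC box, a motif found in 18.1% of 33469 rat promoter windows of that length taken just before the start. The Col4a3 and Col4a4 stretch was 65.9% G and C and held no GC box, which was in 20.03% of windows of its length just before the start. Those windows are not matched for place, because this stretch lies in the middle of the 412 bases and next to neither start. The stretch held neither the CCAAT box, found in 15.1% of such windows, nor the TATA box, spelled TATAAA and found in 5.20%. The 3 motifs were searched on both strands, and the single match overlapped no other. A match is a description of the letters only.

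Both genes of the first pair were lower at P7. Col4a1 stood at 3042 CPM at P1 and 1555 at P7, for a log2 ratio of -0.97 (-1.03 to -0.91), and Col4a2 at 437 CPM at P1 and 84.3 at P7, for a ratio of -2.37 (-2.61 to -2.14). In the other kept cells the ratio was -0.12 for Col4a1 and -1.20 for Col4a2, in the endothelial set -0.72 and -1.81, and in the fibroblast set -0.12 and -1.10. Both genes were thus lower at P7 in each set of cells, and the ratio was lowest in the members. Col4a2 was found in 88.5% of members at P1 and 39.7% at P7, and after thinning in 60.2% and 18.9%, against 2.84% and 2.73% of thinned macrophages. The 2 genes, whose start sites lie 76 bases apart, differed in the size of the ratio. Of the 15 basement membrane genes compared, 1 was at least 2-fold higher at P7 and 2, Col4a2 among them, at least 2-fold lower, with a median of 0.10 against 0.49 in the other kept cells.

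Col4a4, of the second pair, was close to level between the ages at 268 CPM at P1 and 270.3 at P7, for a log2 ratio of 0.01 (-0.16 to 0.19). It stood 6.61 and 6.01 above the other kept cells, the highest such ratio of the 4 collagen IV genes compared, and in the endothelial set it was at 16.1 and 32.3 CPM. Its partner Col4a3 had 24 UMIs at P1 and 28 at P7 in all members, below the level for comparison, and stood at 0.0416 and 0.242 CPM in the other kept cells against 12.4 and 12.8 in the members. Col4a5, on the X chromosome, stood at 112 CPM at P1 and 119.9 at P7, for a ratio of 0.10 (-0.17 to 0.37), and 3.33 and 3.98 above the other cells. So Col4a1 and Col4a2 were lower at P7 while Col4a4 and Col4a5 were not. Levels of different genes are not compared with one another, because 3′ tags give no level per length.

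**Figure D5:**
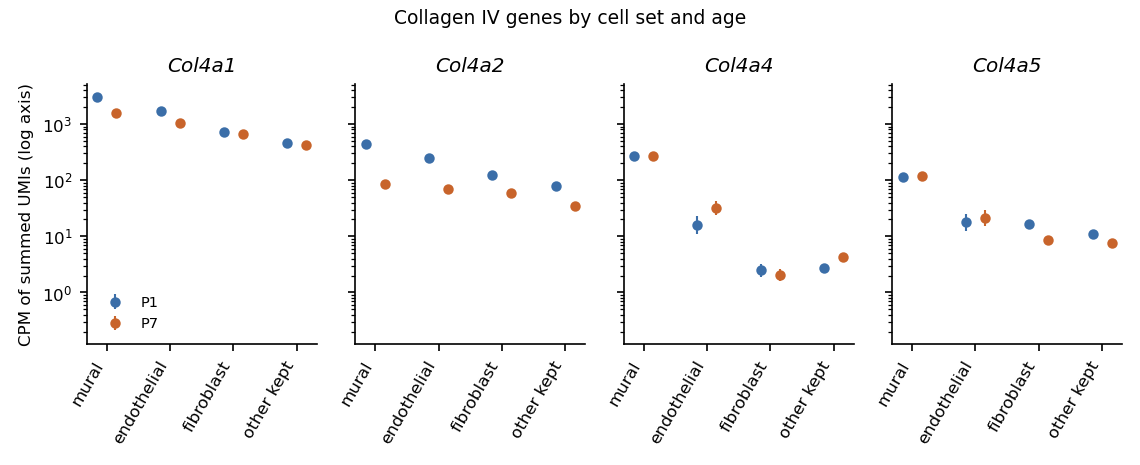
CPM of summed UMIs (y axis, log) of 4 collagen IV genes in mural cells, the endothelial set, the fibroblast set and the other kept cells (x axis), with P1 in blue, P7 in orange and exact 95% counting intervals. Col4a1 and Col4a2 lie lower at P7 than at P1 in mural cells, at 1555 and 84.3 CPM, while Col4a4 stays at 268 and 270.3 CPM, above every other set.

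Laminin genes differed among themselves. Lamc1, the gamma chain of vessel laminins, stood at 102 CPM at P1 and 43.8 at P7, for a log2 ratio of -1.22 (-1.59 to -0.86), against -0.28 in the other cells and -0.89 in the endothelial set. Lama4, the alpha chain of vessel laminin, stood at 111 CPM at P1 and 57.4 at P7, for a ratio of -0.96 (-1.28 to -0.63), within a factor of 2. Lama2, the laminin alpha chain of muscle and nerve, had the opposite direction, at 91.3 CPM at P1 and 134 at P7, for a ratio of 0.56 (0.29 to 0.84). Nid1, which links laminin to collagen IV, stood at 543 CPM at P1 and 380.1 at P7, for a ratio of -0.51 in the members and 0.49 in the other kept cells. Nid1 therefore lay on opposite sides of 0 inside and outside the members, and the difference was not tested. Sparc, a collagen chaperone, stood at 4704 CPM at P1 and 5211 at P7, for a ratio of 0.15 against 1.14 outside. Fbln2, fibulin 2, was the higher gene, at 38.2 CPM at P1 and 86.6 at P7, for a ratio of 1.18 (0.79 to 1.59).

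Of 28 interstitial matrix genes compared, 2 were at least 2-fold higher and 4 at least 2-fold lower at P7, with a median of -0.03. Lower were the fibrillar collagen genes Col1a1 (-1.85), Col5a1 (-1.84) and Col5a2 (-1.05) and the beaded filament collagen gene Col6a1 (-1.10), and in the other kept cells their log2 ratios were -0.69, -1.13, -0.83 and -1.13. Higher were Tnc (1.33) and the proteoglycan gene Dcn (1.05). Col1a1 and Dcn are also on the list of interstitial fibroblast markers, which summed to 444 CPM in the members at P1 and 521 at P7. In the other kept cells that list summed to 1576 CPM at P1 and 3065 at P7, and its part in these ratios was not tested. Mgp, matrix Gla protein, an inhibitor of calcification, stood at 9255 CPM at P1 and 8014 at P7, 3.65 and 4.25 above the other cells on the log2 scale. Of 10 protease and inhibitor genes, Htra1 alone was past 2-fold, at 1.06. Of 12 integrin and junction genes, Cd9, a tetraspanin, was higher (1.51, against 2.45 outside) and Itga4 lower (-1.13, against -0.01 outside).

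Immediate early genes, transcription factors that cells switch on within minutes of a stimulus, had the largest share of lower genes, 7 of 22, with 1 higher. Their median log2 ratio was -0.58 in the members, -0.60 in the other kept cells, -0.81 in the endothelial and -0.99 in the fibroblast set. Fos stood at 1216 CPM at P1 and 352 at P7, for a ratio of -1.79 (-1.91 to -1.67), and Jun at 1276 CPM at P1 and 428 at P7, for a ratio of -1.57 (-1.68 to -1.47). Fosb had the lowest ratio of the list, at -2.15, against -0.94 in the other cells. Egr1, Atf3, Btg2 and Junb had ratios of -1.78, -1.80, -1.40 and -1.12, and Myc was the higher gene at 1.49. The median was thus below 0 in all 4 sets of cells.

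The 12 genes with the lowest ratios were all below 0 in the other kept cells as well. Zbtb16, a zinc finger factor induced by glucocorticoids, stood at 37.1 CPM at P1 and 3.19 at P7, for a log2 ratio of -3.54, against -2.80 in the other kept cells. Cxcl1, a chemokine, had -3.32 against -3.97, and Traf6, an adaptor of innate signalling, -1.99 against -2.18. Eif2s3y, a Y-linked gene, stood at -3.09 against -2.92, and the make-up of the pools by sex was not given. Spp1 (-2.29), Phactr2 (-2.27), Chmp3 (-2.25), Fem1b (-2.14) and Nktr (-2.03) completed the 12 with Col4a2, Fosb and Eef2k, and their ratios in the other kept cells were -1.61, -1.89, -1.48, -2.07 and -1.97. Eef2k, the kinase of elongation factor 2, differed from these in its values. It stood at 42.8 CPM at P1 and 8.20 at P7 in the members, a ratio of -2.38 (-3.21 to -1.64), and at -0.33 in the other kept cells.

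Several of the highest ratios rested on single cells. Ptgds, prostaglandin D synthase, had 3 UMIs at P1 and 1173 at P7, and 99.2% of the latter were in 1 cell. Lyz2, a macrophage lysozyme, had 1 and 178 UMIs, 70.2% of them in 1 cell, and Clu, clusterin, 30 and 609, with 60.8% in 1 cell. Cldn11, a claudin of myelin and of the basal cells of the stria, had 71.4% of its UMIs at P7 in 1 cell. The ratios of these 4 genes thus describe few cells rather than the members as a whole. The others of the 12 were Capg (4.71), Sostdc1 (3.77), Pou3f1 (3.56), the connexin gene Gjb2 (2.63), Rai1 (2.50) and the myelin gene Pmp2 (2.37), and their ratios in the other kept cells were 2.47, 2.61, 2.56, 1.42, 1.497 and 2.02. Over all calls, at least 25% of the UMIs lay in 1 cell for 11 of the 294 higher and 2 of the 240 lower genes.

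Clec2l and Tnfaip6, the other 2 of the highest 12, were spread over more cells. Clec2l, a C-type lectin-like gene, stood at 16.5 CPM at P1 and 119 at P7, for a log2 ratio of 2.84 (2.31 to 3.42), with 3.08% of its UMIs at P7 in the top cell. It was found in 9.27% of members at P1 and 46.0% at P7, and after thinning in 1.94% and 20.6%, against 4.26% and 13.7% of thinned macrophages. At P1 the share in members was below that in macrophages and is read as background, and at P7 it was above theirs. Its age ratio was 1.37 in the other kept cells, 2.02 in the endothelial and 1.65 in the fibroblast set. Tnfaip6, a hyaluronan-binding protein gene, stood at 21.1 CPM at P1 and 107 at P7, for a ratio of 2.33 (1.85 to 2.85), against 0.64 in the other cells, -0.01 in the endothelial and 0.77 in the fibroblast set.

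Ccn3 lay on opposite sides of 0 inside and outside the members. It stood at 763 CPM at P1 and 2245 at P7 in the members, a log2 ratio of 1.56 (1.47 to 1.64), and at 1782 and 1297 in the other kept cells, a ratio of -0.46, and the difference was not tested. Its ratio in the endothelial set was 0.33. It was found in 22.3% of thinned members at P1 and 36.4% at P7 (42.2% and 54.7% without thinning), against 12.1% and 27.9% of thinned macrophages, which should lack it. The share was thus higher at P7 in macrophages as well, and above theirs in the members at both ages. The list of markers of Scara3- and Ccn3-positive mesenchyme, which holds Ccn3, went the same way in the members, from 1196 to 2838 CPM, with 53.6% and 37.6% of its UMIs in 10 barcodes, and from 2688 to 1956 CPM in the other kept cells, and its part in the ratio was not tested.

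Markers of other cell types were found in the members as well. Those of Scara3- and Ccn3-positive mesenchyme, given above, were higher in the members than in the other kept cells at P7. The 10 endothelial markers found in the files summed to 416 CPM at P1 and 479 at P7, against 8671 and 9923 in the endothelial set, and the largest part of it was Esam. Glial markers summed to 1274 and 2307 CPM, against 3105 and 8740 in the other kept cells, with 38.9% and 41.9% in 10 barcodes. Macrophage markers summed to 11.9 and 299.9 CPM, against 457 and 351 in the other kept cells, and 87.4% of the 299.9 CPM were in 10 barcodes. Glial and macrophage markers were therefore higher in the members at P7 than at P1. The macrophage markers at P7 were concentrated in few cells. Glial markers were spread more widely: 96.2% of members at P1 (median 4 UMIs) and 98.3% at P7 (median 7 UMIs) held at least 1 UMI of them. In the other kept cells the share was 97.3% at P1 (median 7 UMIs) and 99.2% at P7 (median 13 UMIs). The share in the members was thus no higher than in cells of the duct at large. Fibrocyte markers, led by Otor, summed to 1942 and 1748 CPM, against 11790 and 14743 in the other kept cells. Neuronal markers summed to 78.9 and 36.5 CPM, erythroid markers to 119 and 199.6, melanocyte markers to 16.0 and 28.7, neutrophil markers to 7.74 and 18.2, muscle markers to 2.58 and 3.19, and T and B cell markers to 1.03 and 0.456. Tyrp1, Mlana, Tyr, Myod1, Ckm, Cd3e, Ms4a1 and Alas2 had no UMI in the members at either age. The part of these markers in the age ratios was not tested, except as the alternatives without doublets, without the members richest in them and without the top barcode of each gene.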

How the data were processed

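Cells of the cochlear duct of Sprague-Dawley rats at P1 and P7 were captured by the study in 2 10x 3′ (V3) libraries. The authors deposited raw UMI counts per gene and barcode, made with Cell Ranger 3.1.0 on the rn6 genome; submitters' notes also name bcl2fastq and Seurat 3.1.1, whose output was not used here. The files held 14068 barcodes at P1 and 14501 at P7, with 114285848 and 101264868 UMIs. The study's stated limits (here 501 to 4999 genes, under 25% mitochondrial UMIs) left 12779 and 12581 cells, which is not the number of cells the study states. Rows with the same symbol were added, 32623 rows giving 26976 symbols.

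The members, gene lists and marker lists were chosen with earlier results of these data known. UMIs were summed per cell set and library and scaled to CPM. Ratios have no pseudocount, a count of 0 was set to a floor of 3 counts, and no ratio was given where both counts were at most 3. Intervals are exact at 95% (conditional binomial for ratios, Clopper-Pearson for shares). Genes with a mean of at least 20 CPM in the members were compared. A difference was counted at 2-fold between ages or contractile groups and at 4-fold against the other cells, without any test.

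The endothelial set was kept cells with at least 3 of the 6 endothelial genes and under 3 Rgs5 UMIs. The fibroblast set had at least 3 Dcn UMIs and 1 Gpc3 UMI, and the macrophage set at least 3 of the 5 genes C1qa, C1qb, C1qc, Csf1r and Tyrobp. The fibroblast set was also held to under 3 Rgs5 UMIs, but the macrophage set was not and can hold members. Cells were thinned to 2000 UMIs for shares, and doublets were called by Scrublet in scanpy 1.11.5 and kept. The computation of the log2 ratio was checked on simulated counts with known ratios. Named genes were those of the rule, the 12 highest and 12 lowest between ages of those reaching 50 UMIs in the library where they were higher, the 15 leading over the other cells with at least 50 CPM, the 10 highest and 10 lowest between contractile groups, and members of the lists. Alternatives changed the rule, the limits, the scale and the level required. Python 3.11.15, numpy 2.4.6, scipy 1.17.1, pandas 2.3.3 and matplotlib 3.10.9 were used.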

Additional observations from a re-analysis of the deposited data

Results flagged for a closer look

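Barcodes outside the limits on genes and mitochondrial UMIs were not used, and 4 of them at P1 and 12 at P7 met the rest of the rule for mural cells. At P1 all 4 had too many genes. At P7, 6 had too many genes, 2 had too few and 5 had too high a mitochondrial share, and 1 barcode is counted under more than one reason. They are a signal in data outside the main measurement.

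Hbb, a beta globin gene, had a log2 P7 to P1 ratio of 2.16 in the mural cells and -1.39 in the endothelial set, so that the sets lay on opposite sides of 0 by more than a factor of 2 each. The difference was not tested. The mural cells held 16 UMIs of Hbb at P1 and 81 at P7, of which 1 cell held 4 at P1 and 38.3% at P7. In the endothelial set it was 1665 and 570 UMIs, of which 95.9% and 96.7% were in 10 barcodes and 44.8% and 48.9% in 1. The ratio was 1.68 in the other kept cells and 2.07 in the fibroblast set.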

How the results depend on the processing

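No paired analysis was possible because each age was 1 library and the labels give no replicate numbers, and for the same reason no replicate could be left out. The limits are those of the design: 300 and 313 cells give wide counting intervals for genes with few UMIs, the libraries cannot be told apart from the ages, and the members change with the rule. Of the values that answer a comparison, 320 moved by less than their limits under the alternatives and 39 by more. Of the values of single named genes and the numbers of members, 735 moved by less, 179 by more, and 12 past their fold limit changed sign. The limit for a gene's ratio was its own counting interval, which is wide for genes with few UMIs. The alternatives that changed only the level required, to 50 or 5 CPM, could not move the ratio of a single gene. All 46 age ratios under each of them are among the 735. With the ratio of the other kept cells taken away, 34 age ratios of named genes moved by more, 6 changed sign and 6 moved by less. The alternatives that left out the 10% of members richest in markers of other cell types, left out the top barcode of each gene, or took the log2 ratio of the other kept cells away were chosen after seeing the data. The causes of the changes below were not tested, apart from the changes in how many cells or genes entered.

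With members that had none of the 6 endothelial genes, 114 cells at P1 and 64 at P7, the log2 ratio of the shares was -0.81 in place of -0.04. That set gave 521 genes at least 2-fold higher and 409 lower at P7, and 73 and 71 between the contractile groups. Most members it left out had Esam, found in 188 members at P1 and 212 at P7. A mean of at least 50 CPM gave 99 and 96 genes between ages, at least 5 CPM gave 851 and 589, and subtracting the ratio of the other kept cells gave 51 and 89. Rescaling CPM by the median ratio gave 236 and 288 in place of 294 and 240, so that more were lower than higher. Between the contractile groups, members with at least 2 of Kcnj8, Abcc9 and Notch3 gave 15 higher and 15 lower, the set without those richest in other markers gave 10 lower, and an even split of the members gave 10 and 4.

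The median age ratio of the contractile list was -0.15 with at least 2 of Kcnj8, Abcc9 and Notch3, -0.076 with no endothelial gene and -0.12 in the lower contractile group. The last is without Acta2 and Tagln, which that group lacks by its choice. With no endothelial gene the median was -0.40 for Notch, -0.17 for integrins, -0.94 for immediate early genes and 0.41 for interferon. In the lower contractile group it was -0.29 for Notch and for basement membrane and -0.37 for lipid genes. At 5 CPM it was -0.26 for integrins, 0.39 for interferon and -0.33 for lipid genes. As a mean over single cells it was 0.20 for basement membrane. Less the ratio of the other kept cells it was -0.49 for pericyte genes, -0.50 for Notch, -0.28 for growth factors, -0.60 for basement membrane, -0.36 for proteases, -0.35 for integrins, -0.31 for cell cycle, -0.081 for immediate early and -0.082 for interferon genes.

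Of the named genes, Actg2 turned to 0.47 with at least 2 of Kcnj8, Abcc9 and Notch3, 1.64 with no endothelial gene, 0.97 with the rule applied after thinning, 0.48 in the lower contractile group and 0.41 without the top barcode, and Cldn11 to -1.79 with no endothelial gene. Less the ratio of the other kept cells, Traf6 turned to 0.19, Cxcl1 to 0.64, Art3 to -0.78, Rasl12 to -0.23, Dlk1 to 0.94 and Angptl4 to -0.28, and of named genes within a factor of 2, Foxs1 to -1.84, Rem1 to -0.29, Vtn to -1.03, Acta2 to -0.40 and Heyl to -1.82. Tagln, -0.53 as reported, turned to 0.16, 0.65 and 0.24 and Acta2, 0.06, went to 0.53, 0.78 and 0.47 with at least 2 of Kcnj8, Abcc9 and Notch3, with no endothelial gene and with the rule applied after thinning. For Tagln, and for Actg2 under the same rules, only the value after thinning had an interval wholly above 0. With no endothelial gene Dlk1 went from -1.60 to -6.01, and its smaller ratio over the other cells from 5.57 to 0.43. Under that rule the other cells included the mural cells it left out, and the smaller ratio of Higd1b went from 8.81 to 5.50.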

Other observations

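Of 30 cell cycle genes compared, 3 were at least 2-fold higher at P7 and 2 at least 2-fold lower, with a median log2 ratio of 0.00 against 0.34 in the other kept cells. Higher were Cdk1, the kinase that drives mitosis (1.23), Pcna, the clamp of DNA replication (1.05), and Aurkb, a mitotic kinase (1.24). Lower were Top2a, a topoisomerase (-1.41), and Kif23, a motor of cytokinesis (-1.48).

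The lists below are to be read beside all genes compared, of which 5.37% were at least 2-fold higher and 4.38% at least 2-fold lower at P7. Of 36 oxidative phosphorylation genes, Sdhd, a subunit of succinate dehydrogenase, was past 2-fold (1.01), and the median was 0.06. Of 11 glycolysis and hypoxia genes none was past 2-fold in either direction. The same held for 7 interferon and antigen presentation genes, of which Ifitm1 stood 2.62 and 2.25 above the other kept cells on the log2 scale. At the shares over all genes, lists as short as these can hold no such gene. Of 9 imprinted growth genes, Dlk1, a Notch-like membrane protein of fetal tissue, was lower, at 168 CPM at P1 and 55.2 at P7, for a ratio of -1.60 (-1.92 to -1.30), against -2.54 in the other kept cells. Dlk1 stood 5.57 above the other cells at P1 and 6.51 at P7. These values depended on the rule: in mural cells with no endothelial gene Dlk1 had 112 UMIs at P1 and 1 at P7, for an age ratio of -6.01 (-11.33 to -3.51). Its smaller ratio over the other kept cells was then 0.43, but those cells included the mural cells that this rule left out. Of 10 lipid and vesicle genes, Apoe (1.37) and Ptgds were higher and Cav1, the coat protein of caveolae (-1.09), lower.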
